A study of Mus musculus with 2 samples.

Results

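The cells described are 351 liver endothelial cells of a mouse with 1 sphinx allele of the GTPase gene Gimap5 (sph/+). They were selected on raw transcript counts, chosen by their counts of 10 genes, above all the sinusoidal lectin Clec4g and Adgrg6, an adhesion G protein-coupled receptor. A barcode was taken with at least 2 unique molecular identifiers (UMIs) of Clec4g, at least 2 of Adgrg6, at most 1 UMI summed over Kit, Wnt2 and Rspo3 (genes of the central side of the lobule), at most 1 of Vwf (large vessels) and at most 2 summed over the division genes Mki67, Top2a, Cenpf and Birc5. The 351 cells made up 2.92% (95% exact Clopper-Pearson interval 2.63 to 3.24) of the 12011 sph/+ cells with at least 2 Clec4g UMIs, 12304 sph/+ cells passed the quality filters, and the whole series holds 29522 barcodes. Because these 10 genes chose the cells, their own levels are no finding, and they were left out of every count of genes below.

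The study sorted liver endothelial cells (DAPI-, CD45-, CD31+) from 1 adult sph/+ mouse and 1 adult sph/sph mouse, both on a C57BL/6 background, and made 1 droplet library from each. Both animals carry the sphinx allele, so neither is a wild-type control. With 1 library per genotype there is no replicate error: every interval below is a 95% interval that covers counting error only, and no test between animals was possible. The same rule found 4 of 490 Clec4g-gated cells in the sph/sph library (0.816%, interval 0.223 to 2.08), too few to describe, so the values below are from sph/+ alone.

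Blood enters the liver sinusoid from portal venules and hepatic arterioles and leaves through the central vein, and sinusoidal endothelial cells (LSECs) change their gene expression along that path. Central cells supply Wnt ligands to hepatocytes, whereas cells near the portal inlet are known for ephrin-B2, the Notch ligand Dll4 and other genes shared with arteries. LSECs are also scavengers, taking up waste molecules through stabilins, the mannose receptor Mrc1 and the Fc receptor Fcgr2b.

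The gated cells had a median of 4847 UMIs and 2309 genes, against 4552 UMIs and 2189 genes in the 11660 other Clec4g-gated cells. Their median mitochondrial share was 4.77%, against 5.72%. A second comparison group passed the same gates on Clec4g, Kit, Wnt2, Rspo3, Vwf and division but had 0 Adgrg6 UMIs. It held 4055 cells with a median of 4133 UMIs, and among the gates only that on Adgrg6 parts it from the gated cells. Both groups may hold 1 UMI of Vwf, and 1 summed over Kit, Wnt2 and Rspo3, so their levels of these genes can still differ. Levels are pooled UMIs scaled to counts per 1e+06 (CPM), and a gene counted as measured with at least 20 CPM in either group. The libraries shared 30 barcode sequences, 1 of them among the gated cells.

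Set against the other Clec4g-gated cells, the gated cells had levels at least 2-fold higher for 121 of 7019 measured genes (1.72%), and 165 (2.35%) were at least 2-fold lower. Against the cells of the same gates with 0 Adgrg6 UMIs, 121 of 6969 genes (1.74%) were at least 2-fold higher and 101 (1.45%) at least 2-fold lower. Ratios were taken after 1 CPM was added to both levels.

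**Figure D1:**
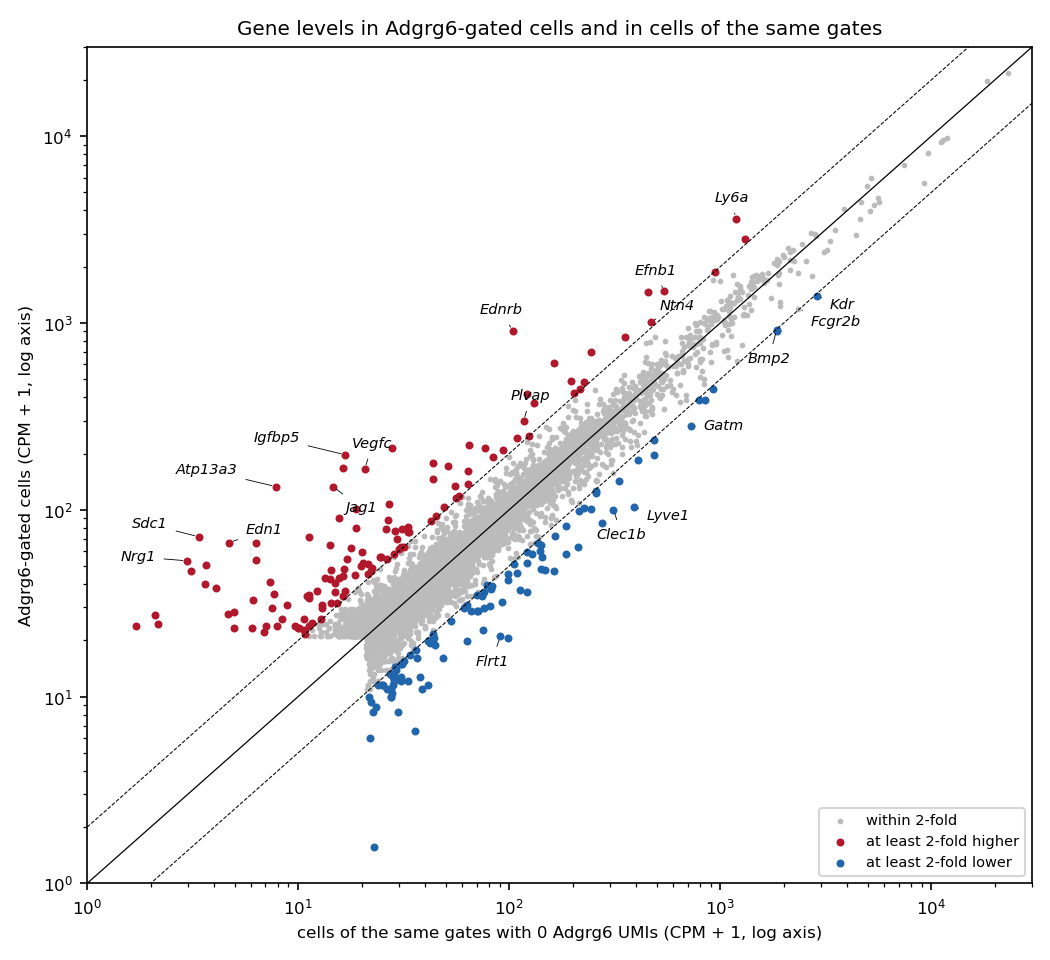
Each point is a gene measured in either group, with its level in the 351 Adgrg6-gated cells (vertical, CPM + 1, log axis) against cells of the same gates with 0 Adgrg6 UMIs (horizontal, CPM + 1, log axis). The solid line marks equal levels and the dashed lines 2-fold. Ednrb, Vegfc and Jag1 lie far above the upper dashed line, and Lyve1 and Flrt1 below the lower one.

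The 4 markers given with the cells that the rule did not use were all higher. Ntn4, a secreted netrin, stood at 1010 CPM in the gated cells and 322 CPM in the other Clec4g-gated cells, 3.13-fold higher (2.99 to 3.29). Efnb1, an ephrin ligand on the cell surface, stood at 1473 and 400 CPM, 3.68-fold higher (3.53 to 3.83). Vegfc, a growth factor for lymphatic and sinusoidal endothelium, stood at 165 and 27.1 CPM, 6.11-fold higher (5.38 to 6.92). Glul, which makes glutamine, stood at 777 and 335 CPM, 2.32-fold higher (2.19 to 2.44). These genes were also higher than in cells of the same gates with 0 Adgrg6 UMIs. There Ntn4 was 2.15-fold (2.04 to 2.27), Efnb1 2.73-fold (2.61 to 2.85), Vegfc 8.38-fold (7.15 to 9.82) and Glul 1.75-fold (1.65 to 1.85) higher. The Vegfc ratio was the largest of the 4 there. At 19.7 CPM in those comparison cells, under the 20 CPM floor, Vegfc was measured only through the gated cells, so the ranking is a description only.

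Gated cells often held UMIs of several of these markers. Without thinning, 139 of the gated cells (39.6%) held a UMI of all 4 genes, and only 1 held none. All 4 were held by 5.78% of the other Clec4g-gated cells and 4.86% of cells of the same gates with 0 Adgrg6 UMIs. Among the gated cells, those with and without Vegfc held Ntn4 in 96.9% and 93.7%, Efnb1 in 100% and 95.3% and Glul in 89.4% and 91.6%. Whether the markers met in single cells beyond what their own levels give was not tested. Depth differs between groups, so shares were also taken after every cell was thinned to 2000 UMIs. This left out 5 gated cells and 176 cells of the same gates. At that depth Efnb1 was found in 91% of gated cells and in 50.5% of cells of the same gates, and Vegfc in 27.2% and 4.07%. Without thinning the Vegfc shares were 45.6% and 7.25%. Of 58 barcodes with almost no endothelial UMIs, 45 reached 2000 UMIs (median 8381 before thinning), and in these the thinned shares were 8.89% for Efnb1 and 0% for Vegfc.

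In the mm10 genome Adgrg6 lies on chromosome 10 (14402583 to 14545659, minus strand) and Vegfc on chromosome 8 (54077606 to 54187096, plus strand). Efnb1 lies on chromosome X (99136130 to 99148991, plus strand), and Ntn4 on chromosome 10 (93640681 to 93747207, plus strand).

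**Figure D2:**
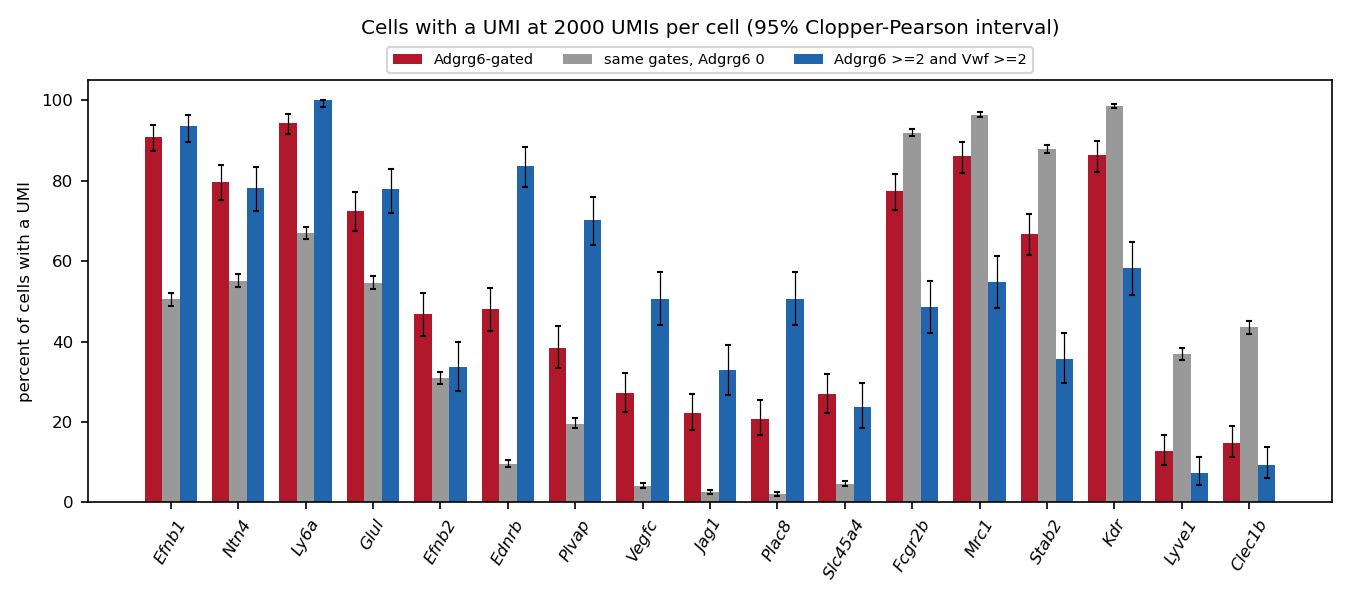
Bars give the percent of cells with at least 1 UMI of each gene at 2000 UMIs per cell, with 95% Clopper-Pearson intervals, for the Adgrg6-gated cells (red), cells of the same gates with 0 Adgrg6 UMIs (grey) and the 235 Clec4g-gated cells with at least 2 UMIs of both Adgrg6 and Vwf that passed the remaining gates (blue). Efnb1 was found in 91% of the gated cells and 50.5% of the cells of the same gates, while Lyve1 was found in 12.7% and 36.8%.

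Notch pathway genes did not all go the same way. The ligand Jag1 stood at 132 CPM in the gated cells and 19.4 CPM in the other Clec4g-gated cells, 6.8-fold higher (5.88 to 7.82), and the ligand Dll4 at 335 and 143 CPM, 2.34-fold higher (2.15 to 2.55). Hey1, a transcription factor that Notch induces, stood at 26.7 and 3.44 CPM and was 7.77-fold higher (5.55 to 10.7). Nrarp, another Notch target, was 2.09-fold higher (1.79 to 2.43) than in cells of the same gates with 0 Adgrg6 UMIs. The fringe enzyme Lfng, which modifies Notch receptors, went the other way, at 7.79 and 55.3 CPM, 7.09-fold lower (4.22 to 13). Of 12 measured genes of the pathway, 5 were at least 1.5-fold higher and 1 lower in each comparison. Among all measured genes 4.5% and 4.35% were that much higher, and 6.35% and 4.68% that much lower. Jag1 and Hey1 were under 20 CPM in both comparison groups, so they were measured only through the gated cells and had to differ. The same held for the ligand Dll1 against cells of the same gates. In that comparison the Notch target Hes1 differed by less than 1.5-fold. The receptors Notch1 and Notch4 differed by less than 1.5-fold.

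Of 18 genes of an arterial list, 9 were under 20 CPM in all of the compared groups. Another 3 (Gja5, Hey1 and Jag1) passed that floor only through the gated cells and so had to differ. The remaining 6 were also at 20 CPM or more in both comparison groups, and these 6 were at least 1.5-fold higher in each comparison, beside 4.5% and 4.35% of all measured genes. Over the 9 measured members the median log2 ratio was 1.22 and 1.14, where the median of all measured genes was 0.02 and 0.04. The transcription factor Mecom stood at 372 CPM and 94.7 CPM in the other Clec4g-gated cells, 3.93-fold higher (3.62 to 4.26). Efnb2, the arterial ephrin, stood at 357 and 125 CPM, 2.85-fold higher (2.62 to 3.09), and Sox17, an arterial transcription factor, at 240 and 104 CPM, 2.31-fold higher (2.09 to 2.55). The gap junction gene Gja4 stood at 484 and 303 CPM, 1.6-fold higher (1.49 to 1.71).

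Of the portal zone list, 14 of 16 measured genes were at least 1.5-fold higher than in the other Clec4g-gated cells, and 11 of 16 higher than in cells of the same gates with 0 Adgrg6 UMIs. Among all measured genes 4.5% and 4.35% were that much higher. The list members Jag1 and Hey1 passed the floor only through the gated cells in both comparisons, and Vegfc in the second. This list includes the 4 markers and shares genes with the arterial list. The scavenger receptor Msr1 stood at 799 and 325 CPM, 2.46-fold higher (2.33 to 2.6), and Ltbp4, which binds latent TGF-beta, at 1003 and 582 CPM, 1.72-fold higher (1.64 to 1.81). Adam23 differed little, at 1115 and 971 CPM, and was lower than the 1288 CPM of the same gates with 0 Adgrg6 UMIs.

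**Figure D3:**
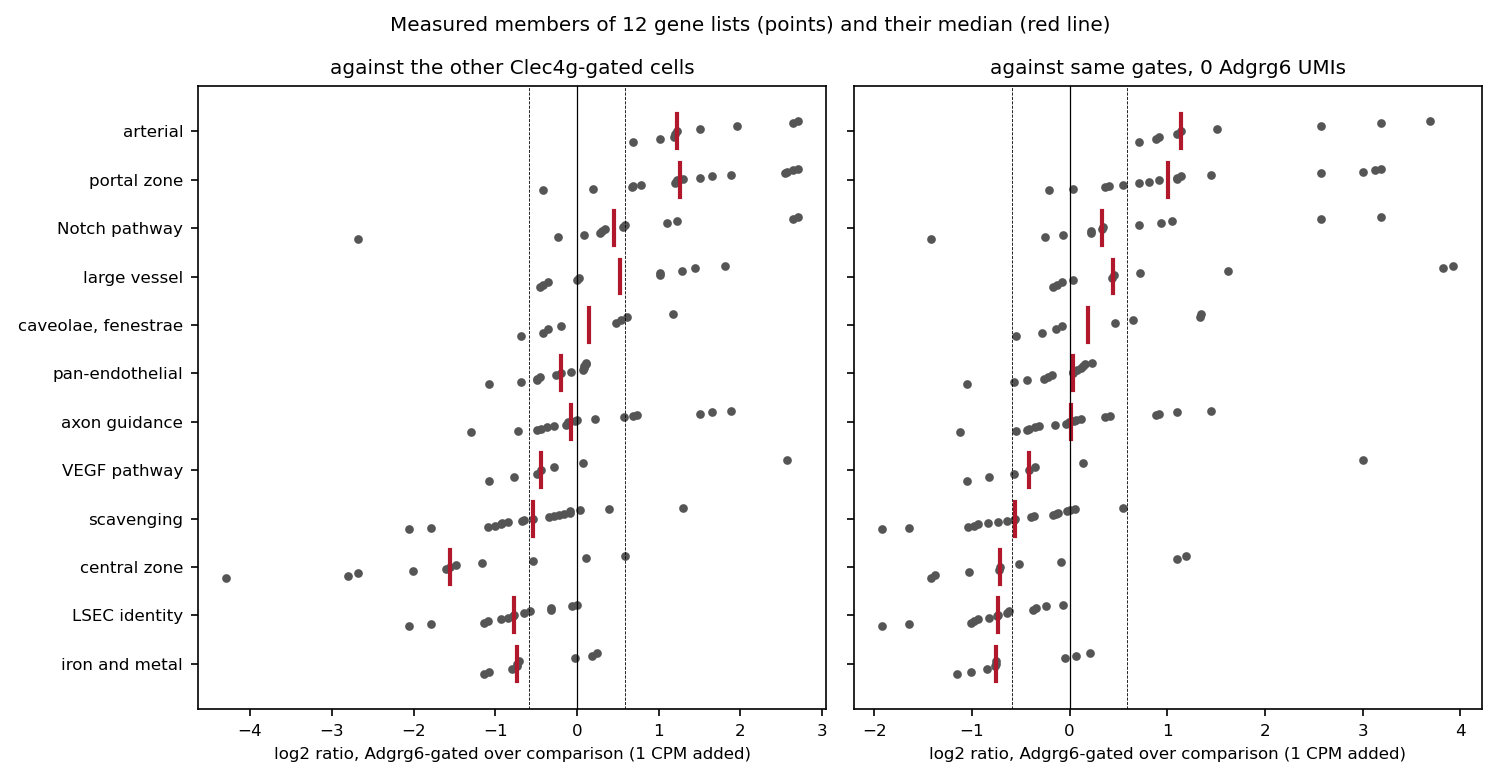
Points are the measured genes of 12 lists by their log2 ratio of the Adgrg6-gated cells over the other Clec4g-gated cells (left) or over cells of the same gates with 0 Adgrg6 UMIs (right). Red lines are list medians and dashed lines mark 1.5-fold. The arterial median was 1.22 and 1.14, and the LSEC identity median was -0.77 and -0.73.

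An endothelin receptor gene was among the largest differences. Ednrb, a receptor for endothelins, stood at 907 CPM in the gated cells, 155 CPM in the other Clec4g-gated cells and 103 CPM in cells of the same gates with 0 Adgrg6 UMIs, 5.85-fold (5.55 to 6.17) and 8.81-fold (8.23 to 9.42) higher. Its UMIs were found in 200 of the 351 cells. Edn1, the vasoconstrictor ligand, stood at 65.7, 23.6 and 3.71 CPM, but only 37 cells held it. Gucy1b1, a subunit of the nitric oxide receptor, stood at 42.3 and 10.3 CPM, 4.13-fold higher (3.21 to 5.24) than in the other Clec4g-gated cells. Gucy1b1 in both comparisons, and Edn1 against the same gates, were measured only through the gated cells. Of 11 measured vasoactive genes, 3 were at least 1.5-fold higher and 3 lower in each comparison, with median log2 ratios of -0.01 and 0.03. Among all measured genes 4.5% and 4.35% were that much higher, and 6.35% and 4.68% that much lower.

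Other leading genes encode structural, membrane and matrix proteins. Slc45a4, a solute carrier, stood at 214 and 22.3 CPM, 9.58-fold higher (8.53 to 10.7) than in the other Clec4g-gated cells, and was found in 175 cells. Plac8 stood at 167 and 27.2 CPM, 6.14-fold higher (5.41 to 6.95), and Ly6a, a surface protein of large-vessel endothelium, at 3621 and 1028 CPM, 3.52-fold higher (3.43 to 3.61). The cytoskeletal genes Pdlim3 and Lmo7 were 8.61-fold (6.74 to 10.9) and 7.22-fold (5.87 to 8.83) higher, and Fbn1, which encodes fibrillin, was 5.21-fold higher (4.28 to 6.29). Megf6, Emb, Cfap69 and Rflnb were between 5.17-fold and 6.87-fold higher. The 12.8-fold difference of the desaturase gene Scd1 rests on 5 cells, 1 of which held 47.8% of its UMIs. Like Pdlim3, Lmo7, Fbn1, Megf6, Emb, Cfap69 and Rflnb, Scd1 was under 20 CPM in the other Clec4g-gated cells. These genes were measured only through the gated cells and had to differ. Igfbp5, an insulin-like growth factor binding protein at 196 and 20.9 CPM, was found in only 35 cells.

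Many LSEC identity genes were lower. Of 14 measured LSEC genes other than Clec4g, none was at least 1.5-fold higher, 9 were that much lower than in the other Clec4g-gated cells and 10 lower than in cells of the same gates with 0 Adgrg6 UMIs. Among all measured genes 6.35% and 4.68% were that much lower. Lyve1, a hyaluronan receptor, stood at 102 CPM against 427 and 390 CPM, 4.19-fold lower (3.63 to 4.88) and 3.82-fold lower (3.3 to 4.45). Stab2, the other hyaluronan-clearing receptor, stood at 624 against 1332 and 1202 CPM, 2.13-fold lower (2.01 to 2.27) and 1.93-fold lower (1.81 to 2.05). Fcgr2b, an inhibitory Fc receptor that clears immune complexes, stood at 1185 against 2252 and 2337 CPM. Clec1b stood at 99.1 against 346 and 311 CPM, and Bmp2, which instructs hepatocyte iron control, at 921 against 2026 and 1851 CPM.

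Gata4, the transcription factor that LSECs need, stood at 271 CPM in both the gated and the other Clec4g-gated cells and at 285 CPM in cells of the same gates. Its partner in LSEC identity, Maf, stood at 1781 against 2668 and 2732 CPM. Of 13 measured general endothelial genes, none was at least 1.5-fold higher. Among all measured genes 4.5% and 4.35% were that much higher, and 6.35% and 4.68% that much lower. Kdr and Eng were that much lower than in the other Clec4g-gated cells, and Kdr alone lower than in cells of the same gates, with list medians of -0.19 and 0.03 on the log2 scale. Pecam1 (763 against 705 CPM) and Cdh5 (916 against 858 CPM) were within 1.1-fold (ratios 1.08 and 1.07). Kdr, the main VEGF receptor, was 2.12-fold lower (2.04 to 2.21), the co-receptor Eng 1.6-fold lower (1.54 to 1.67), and Flt4, the receptor for Vegfc, was 1.7-fold lower (1.59 to 1.82). Gimap5 itself stood at 80.7 CPM against 105 and 94.3 CPM, in an annotation where it overlaps another gene model on the same strand.

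Central-side genes were low against all Clec4g-gated cells, a group from which the rule parts the gated cells by Kit, Wnt2 and Rspo3. Of 11 measured central zone genes, 8 were at least 1.5-fold lower and 1 higher, beside 6.35% and 4.5% of all measured genes. Lhx6 had 1 UMI in the gated cells and 29.4 CPM in the others, a ratio of 52.8 with a counting interval of 9.46 to 2085. Cdh13 stood at 37.9 and 155 CPM, 4.11-fold lower (3.24 to 5.29), and Gatm, a creatine-synthesis enzyme, at 279 and 845 CPM, 3.03-fold lower (2.77 to 3.31). Ube2c, a mitotic gene, had no UMI in the gated cells and was at least 13.8-fold lower against a floor of 3 counts, in cells from which dividing cells had been gated out.

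With the same gates in both groups, 5 of 9 measured central zone genes were at least 1.5-fold lower and 2 higher, with a median log2 ratio of -0.71. Among all measured genes 4.68% and 4.35% were that much lower and higher. Gatm was 2.6-fold lower (2.38 to 2.85), Lfng 2.88-fold lower (1.7 to 5.32) and Ptgs1, a prostaglandin-synthesis enzyme, 1.65-fold lower (1.45 to 1.89). Thbd, an anticoagulant receptor, stood at 190 CPM in the gated cells and 83 CPM in cells with 0 Adgrg6 UMIs, 2.29-fold higher (2.03 to 2.58). Fabp4, a fatty acid binding protein, stood at 2807 and 1306 CPM, 2.15-fold higher (2.08 to 2.22). Cdh13 hardly differed there, at 37.9 and 40.3 CPM.

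A score of position counted, in each cell thinned to 2000 UMIs, the share of portal UMIs among the UMIs of 8 portal and 8 central landmark genes, none of which the rule used. The cells were ranked by this score and cut into 10 bins of equal size. Over all Clec4g-gated cells the gated cells made up 0.172% of the most central bin (2 of 1166 cells) and 5.92% of the most portal bin (69 of 1165 cells). Among cells that passed the other gates the order was not seen: the share was 2.33% (0.283 to 8.15) in the most central bin and between 6.41% and 8.73% in the others, with overlapping intervals. The median score was 0.625 in the gated cells and 0.632 in cells of the same gates with 0 Adgrg6 UMIs. At equal depth the gated cells held a median of 11 portal and 6.5 central landmark UMIs, against 8 and 4.

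The result among cells of the same gates depended on which landmarks were counted, among them Fabp4 and Gatm. In the gated cells Fabp4 gave a mean of 5.86 of 7.21 central landmark UMIs per cell, and in cells of the same gates with 0 Adgrg6 UMIs 2.59 of 4.8. Gatm went the other way, at 0.604 and 1.47 UMIs per cell. The score was therefore also taken without each landmark in turn, an alternative chosen after the values were seen. Without Fabp4 the median central landmark count was 1 UMI in the gated cells and 2 in cells of the same gates, and the median score was 0.909 against 0.8. The gated share of cells of the same gates then went from 0% (0 of 92 cells, upper bound 3.93%) in the most central bin to 13.6% (11.3 to 16.2) in the most portal bin, with 13.1% (11 to 15.5) in the bin beside it. Without Gatm the shares leaned the other way beyond the most central bin, from 12.8% (7.36 to 20.3) in bin 2 to 4.71% (3.36 to 6.41) in the most portal bin. Without any other landmark the most portal bin held between 6.83% and 8.1%. Without Adam23, however, the share was 1.59% (0.193 to 5.62) in the most central bin, 11.8% (9.54 to 14.4) in bin 8 and 8.1% in the most portal bin. The marker genes were given with the label portal inlet, so their higher levels are no separate test of it. The position by this score relative to cells of the same gates turned on which landmarks were counted.

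**Figure D4:**
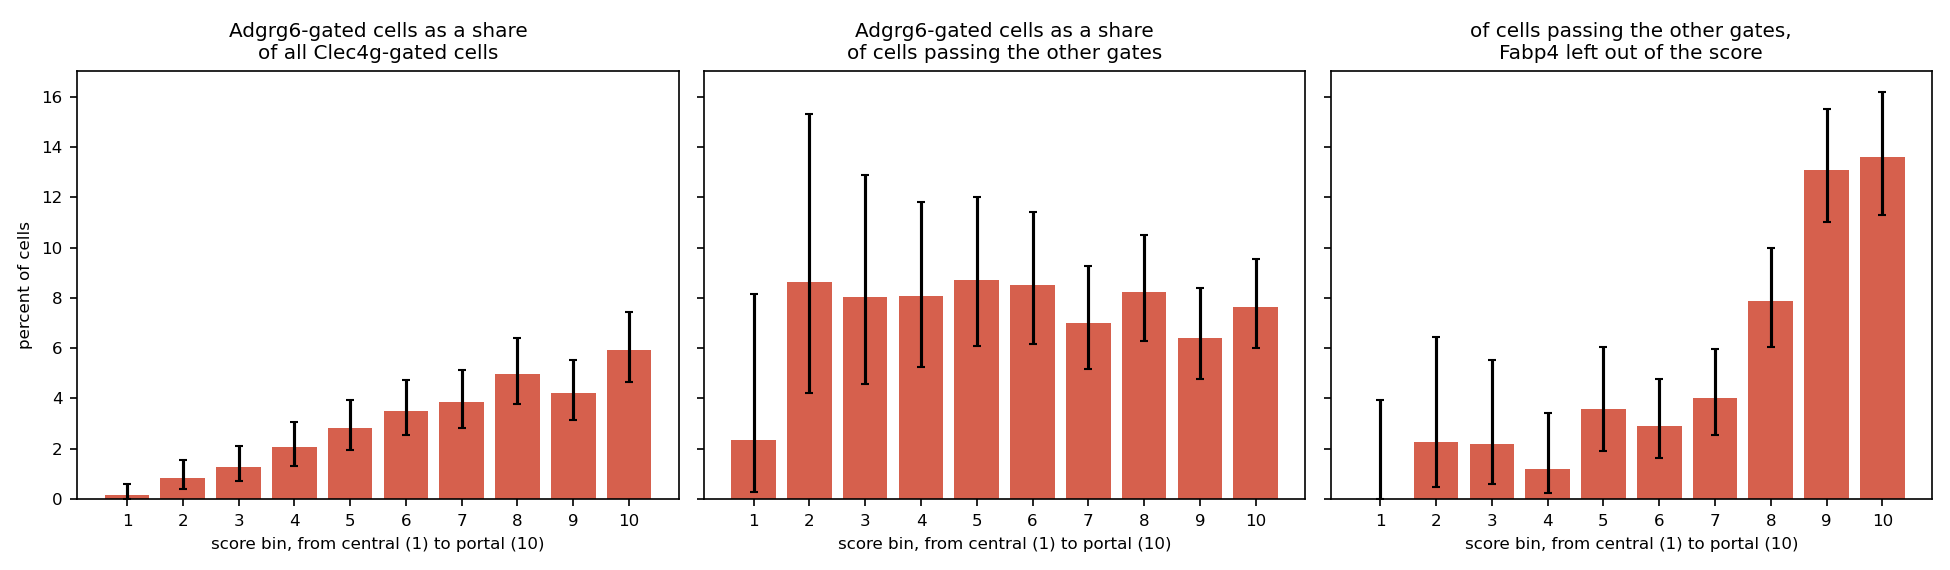
Bars give the percent of cells in each of 10 bins of the portal score that were Adgrg6-gated, with 95% Clopper-Pearson intervals, among all Clec4g-gated cells (left), among cells passing the other gates (middle) and among the latter with Fabp4 left out of the score (right). The left share goes from 0.172% to 5.92%, the middle shares of bins 2 to 10 lie between 6.41% and 8.73%, and the right share goes from 0% to 13.6%.

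Levels of several genes differed with the count of Adgrg6. Adgrg6 is a rule gene, so this split is a description only. Cells of the same gates with 1 Adgrg6 UMI (347 cells, just outside the rule) had 834 CPM of Ntn4, 1188 of Efnb1 and 77.8 of Vegfc. The 169 cells with 2 UMIs (just inside) had 926, 1332 and 120 CPM. Pooled levels cannot tell a gradual change from a changing mix of cells. In the 133 cells with 3 or 4 UMIs Ednrb stood at 991 CPM and in the 49 cells with 5 or more at 1496 CPM, against 639 CPM in those with 2. Fcgr2b went from 1466 through 1042 to 700 CPM over the same steps. Lyve1 did not follow this order, at 79.4, 130 and 100 CPM. Edn1 stood at 4.81 CPM in the cells with 2 UMIs, near the 3.71 CPM of cells with none, and at 140 and 64.3 CPM in the higher steps. Sdc1, a heparan sulfate proteoglycan, stood at 18, 94.9 and 168 CPM, and Igfbp5 at 32.5, 190 and 696 CPM.

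The largest ratios against cells of the same gates included Sdc1, Nrg1 and Fbln2. Sdc1 stood at 70.7 and 2.38 CPM, 29.7-fold higher (20.7 to 43.3), the growth factor Nrg1 at 52.3 and 1.97 CPM, 26.5-fold higher (17.7 to 40.5), and the matrix gene Fbln2 at 46.2 and 2.09 CPM, 22.1-fold higher (14.8 to 33.7). They were found in 68, 42 and 34 of the 351 cells. All were under 20 CPM in the comparison cells, so they were measured only through the gated cells and had to differ. The 63 gated cells with 1 Vwf UMI held 19.2% of all UMIs but 49.6% of those of Sdc1, 57.4% of Nrg1, 57.8% of Fbln2 and 57.4% of Gja5. By contrast they held 16.4% of Ntn4 and 21.6% of Efnb1. Cells next to the Vwf threshold thus carried much of the first set and not of the second. Other genes named above lay between: these cells held 37.4% of Ednrb (35.1 to 39.8), 38.4% of Igfbp5 and 35.7% of Plac8. Of Ly6a they held 29.1% and of Vegfc 26.9% (22 to 32.4).

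Across the Vwf threshold lay 284 Clec4g-gated cells with at least 2 UMIs of Adgrg6 and of Vwf. Of these, 235 also passed the gates on Kit, Wnt2, Rspo3 and division, and they form a group chosen after the values were seen. They had 2205 CPM of Ednrb, 426 of Vegfc, 465 of Edn1 and 7432 of Ly6a, all above the gated cells. Their Ntn4 (906 CPM) and Efnb1 (1491 CPM) were near the gated cells' 1010 and 1473 CPM. Adam23 was 4.43-fold higher (3.96 to 4.96) in the gated cells, at 1115 and 252 CPM, and Stab2 stood at 624 and 287 CPM. Of 7089 genes measured, 130 (1.83%) were at least 2-fold higher and 182 (2.57%) at least 2-fold lower in the gated cells than in the Vwf group. For Ednrb, Vegfc, Stab2 and Fcgr2b the gated cells lay between the cells of the same gates with 0 Adgrg6 UMIs and the Vwf group.

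**Figure D5:**
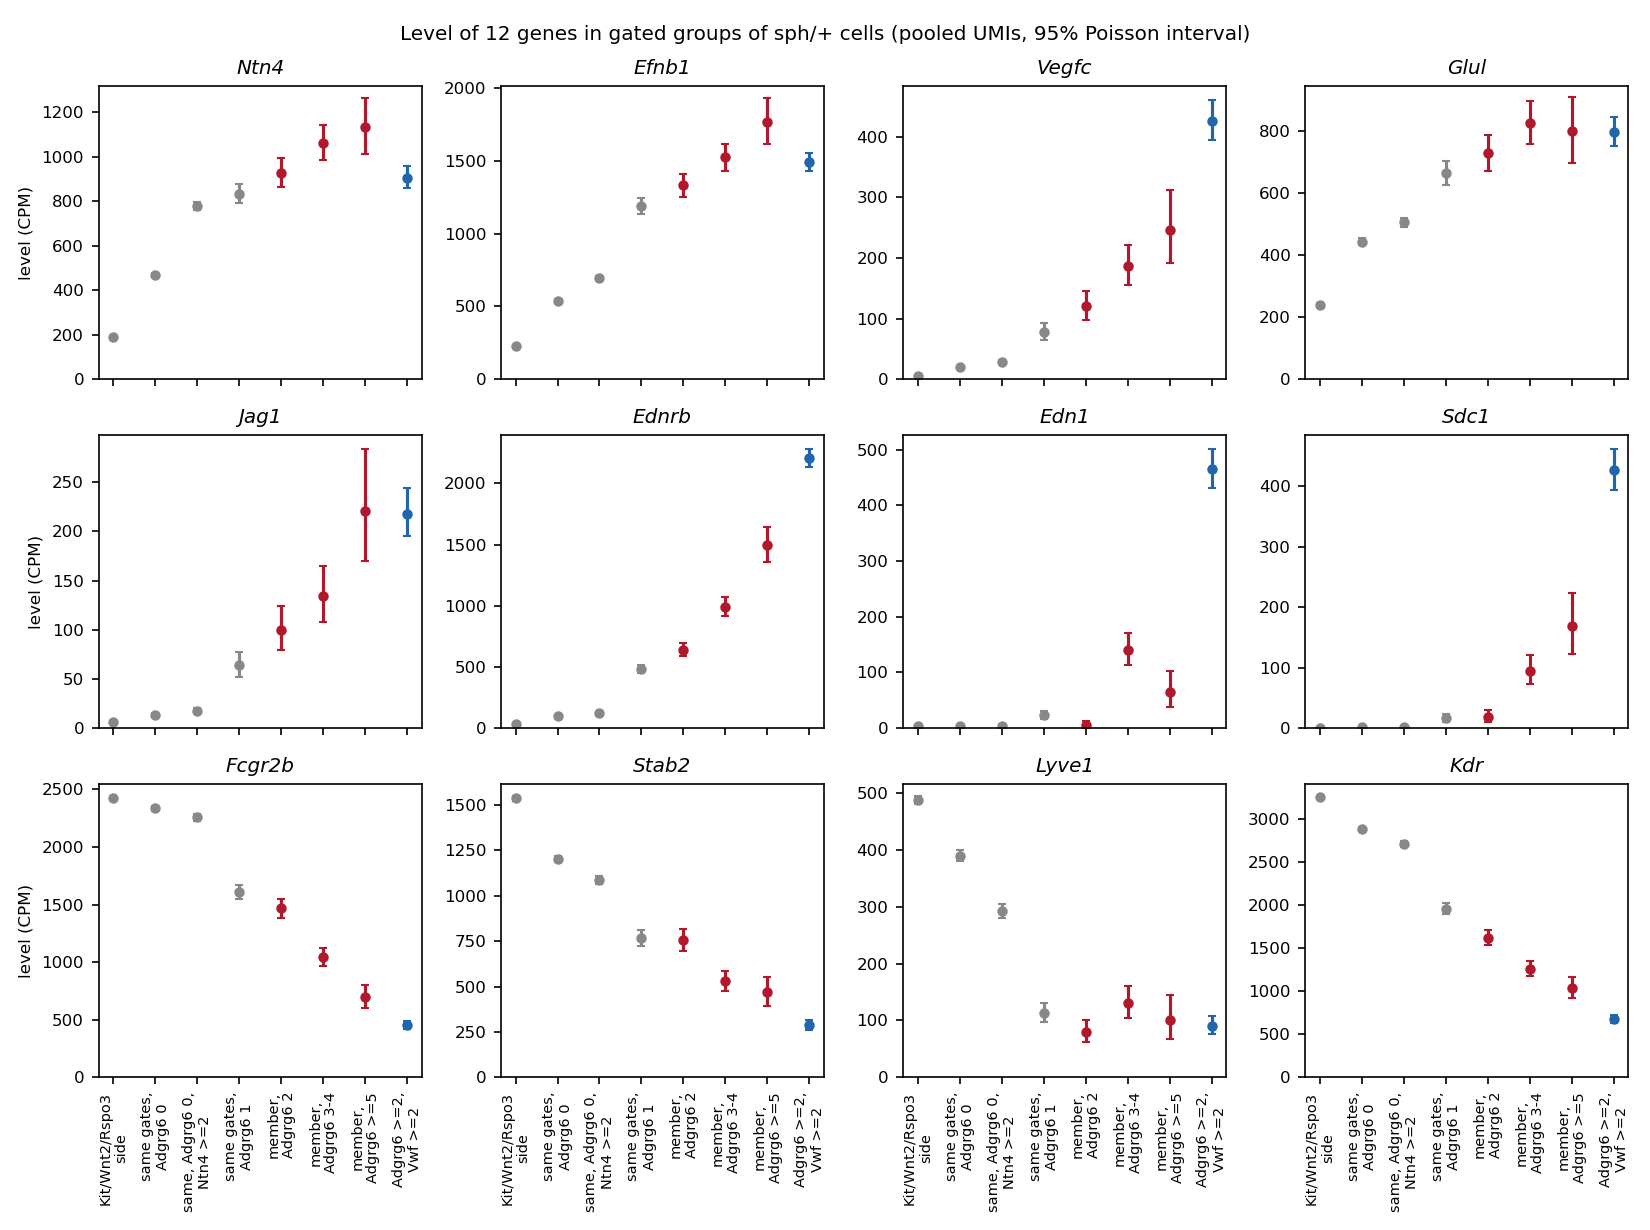
Points give the pooled level (CPM) of 12 genes with 95% Poisson intervals in groups of sph/+ cells, from central-side cells (left) over cells of the same gates with 0 or 1 Adgrg6 UMIs (grey) and the gated cells with 2, 3 to 4 and 5 or more Adgrg6 UMIs (red) to the 235 Clec4g-gated cells with at least 2 UMIs of Adgrg6 and of Vwf that passed the remaining gates (blue). Ednrb goes from 639 through 991 to 1496 CPM over the red points, and Fcgr2b from 1466 to 700 CPM.

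Among the gated cells some genes differed with detection of Ntn4, while for others the interval of the ratio held equal levels. At 2000 UMIs per cell, the 276 gated cells with an Ntn4 UMI and the 70 without had 183 and 179 CPM of Vegfc (ratio 1.02, 0.656 to 1.66) and 1486 and 1579 CPM of Efnb1 (0.941, 0.81 to 1.1). Ednrb was lower in those with Ntn4, at 804 and 1200 CPM (0.67, 0.56 to 0.805), and so was Ly6a, at 3399 and 4471 CPM (0.76, 0.694 to 0.833).

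A nearer comparison took the 1925 cells of the same gates with 0 Adgrg6 UMIs and at least 2 Ntn4 UMIs, the periportal type without Adgrg6. Against them 108 of 6951 genes (1.55%) were at least 2-fold higher and 55 (0.791%) at least 2-fold lower. Efnb1 stood at 1473 and 695 CPM, Jag1 at 132 and 17.9 CPM, Vegfc at 165 and 27.4 CPM and Lyve1 at 102 and 292 CPM. Jag1 was under 20 CPM in these periportal cells, so it was again measured only through the gated cells. Flrt1, which encodes an adhesion protein, was 4.03-fold lower (2.88 to 5.8), and Aass, a lysine-degrading enzyme, 3.03-fold lower (2.57 to 3.6).

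Against the 6470 central-side cells (at least 2 UMIs over Kit, Wnt2 and Rspo3, 0 of Adgrg6), 181 of 7034 genes (2.57%) were at least 2-fold higher and 211 (3%) at least 2-fold lower. Plac8 was 53.5-fold higher (42.7 to 67.3), but at 3.12 CPM in the central-side cells it was measured only through the gated cells. Wnt9b, a Wnt ligand of central endothelium, had no UMI in the gated cells and was at least 15.1-fold lower against a floor of 3 counts. Against all 445 Clec4g-gated cells with at least 2 Vwf UMIs, 23 of 7139 genes (0.322%) were at least 2-fold higher and 182 (2.55%) at least 2-fold lower, with Adam23 2.84-fold higher (2.64 to 3.05) and Msr1 2.66-fold higher (2.45 to 2.89). The 77 cells with at least 2 Vwf UMIs and at most 1 of Clec4g were further away, with 12.1% of 7664 genes at least 2-fold higher and 11.5% at least 2-fold lower in the gated cells. That group held transcripts of other cells, among them 1279 CPM of the fibroblast gene Dcn, against 45.1 CPM in the gated cells.

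Markers of other cells differed by type. The 9 lymphocyte and 4 neutrophil markers had no UMI in the gated cells, which allows each up to 1.67 CPM, and the 13 Kupffer and myeloid markers summed to 8.35 CPM, against 54.1 CPM in the other Clec4g-gated cells. Hepatocyte markers summed to 469 CPM against 333 CPM, with Apoa1 2.13-fold higher (1.69 to 2.66), and 197 of the gated cells held none of them. Apoa1 was found in 32 gated cells, 1 of which held 27.7% of its UMIs. The 5 mesothelial markers summed to 32.3 CPM against 20.7 CPM, and 3 of them were at 0 in the gated cells. Among them Gpm6a stood at 27.3 and 6.39 CPM, 4.27-fold higher (3.1 to 5.76), and was measured only through the gated cells. The 13 stellate cell and fibroblast markers summed to 223 and 225 CPM, and the 9 cholangiocyte markers to 175 and 381 CPM. Of the cholangiocyte sum in the gated cells, Spp1 gave 137 CPM, from 12 cells, 1 of which held 50% of its UMIs. Ribosomal protein genes took 9.86% of UMIs against 8.3%. The part of these differences in the results above was not tested.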

How the data were processed

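Gene expression was measured in sorted liver endothelial cells of 1 sph/+ and 1 sph/sph mouse with the 10x Genomics 3' droplet assay. The deposited values are raw counts of UMIs per gene and barcode over 31053 genes, which the authors made with Cell Ranger 3.0 against mm10, per the submitters' processing notes; the matrix header names software version 3.1.0. The annotation release is not given in the sources used here. Barcodes were kept with at least 500 genes, 1000 UMIs and at most 15% mitochondrial UMIs. Deposited totals were 64460283 UMIs in 13136 sph/+ barcodes and 68983780 in 16386 sph/sph barcodes.

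UMIs of each group were pooled and scaled to CPM. Levels have exact Poisson intervals, ratios exact binomial intervals and shares Clopper-Pearson intervals, at 95%. These cover counting error only, and UMIs of 1 cell are not independent. Genes were counted at 2-fold and list members at 1.5-fold. Named genes are the 15 highest and lowest against the other Clec4g-gated cells, the 10 highest and lowest against the same gates, the 5 against other groups, up to 4 per list, and a fixed set of zonation and LSEC genes. Some genes that this rule names are not reported here. A few further values are given for genes of the compared sets. The members and lists were chosen with earlier results of these data known. Doublets were kept: Scrublet (scanpy 1.11.5) marked 1 of 12304 barcodes automatically, so an alternative removed the highest scores. Counts for the comparison with the other Clec4g-gated cells, over 6693 genes, were simulated as Poisson draws, the model that the intervals assume. There 100% of 4-fold changes passed 2-fold and 95% of intervals held the true ratio. This checked the calculation only, because the simulation left out the gathering of UMIs in single cells. Coordinates are from GENCODE, which matched 31011 gene identifiers. Python 3.11.15, numpy 2.4.6, scipy 1.17.1 and pandas 2.3.3 were used.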

Additional observations from a re-analysis of the deposited data

How the results depend on the processing

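Of 65 ratios of named genes that were at least 2-fold apart, 64 kept their direction under every alternative and 59 stayed at least 2-fold apart. The exception in direction was Scd1, whose log2 ratio against the other Clec4g-gated cells was 3.29 and became -0.27 with at least 3 Adgrg6 UMIs. The sizes of ratios moved more often. Over all named genes tried and all alternatives, 215 values, from 78 ratios, fell outside the counting interval of the main ratio, and 936 stayed within it. Of the 215, 52 came with at least 1 Adgrg6 UMI, 42 with 10 CPM added and 37 with no UMI of Vwf, Kit, Wnt2 or Rspo3. Another 30 came with at least 3 Adgrg6 UMIs. Gene counts moved mainly with how low genes were treated. Against the other Clec4g-gated cells, 121 higher and 165 lower genes became 202 and 375 with a floor of 5 CPM, 71 and 90 with a floor of 50 CPM, and 77 and 103 with 10 CPM added, and 107 were lower with a gate of at least 1 Adgrg6 UMI. Against the same gates with 0 Adgrg6 UMIs, 121 higher and 101 lower genes became 234 and 211 with a floor of 5 CPM and 70 and 57 with a floor of 50 CPM. The lower count there became 50 with 10 CPM added, 45 with at least 1 Adgrg6 UMI, 174 with at least 3 Adgrg6 UMIs and 152 after thinning to 2000 UMIs. The cause was not tested, except that a floor changes how many genes enter. The other 33 counts were within 1.5 times, among them those without the highest Scrublet scores, which removed 13 of the 351 cells. The median log2 ratio of hepatocyte markers against the other Clec4g-gated cells became -0.55 with at least 3 Adgrg6 UMIs, while with at least 1 Adgrg6 UMI that of cholangiocyte markers became 0.98 against the other Clec4g-gated cells and 1.14 against the same gates. The gated share of the most portal bin among cells passing the other gates, 7.63%, became 13.6% without Fabp4 in the position score and 4.71% without Gatm, alternatives added after the values were seen, and the other 14 landmarks moved it within its counting interval. No paired analysis was possible because each genotype has 1 library.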

Other observations

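Several genes of iron and metal handling were lower in the gated cells in both comparisons. Slc40a1, the iron exporter ferroportin, stood at 101 CPM against 214 CPM in the other Clec4g-gated cells and 224 CPM in cells of the same gates with 0 Adgrg6 UMIs, 2.13-fold (1.84 to 2.48) and 2.23-fold (1.92 to 2.6) lower. Of 9 measured genes of the iron and metal list, 6 were at least 1.5-fold lower in each comparison, beside 6.35% and 4.68% of all measured genes, Bmp2 and Bmp6 among them, while the ferritin genes Fth1 and Ftl1 were within 1.5-fold. Gas6, a ligand of TAM receptors, stood at 100 CPM against 350 and 244 CPM, and Aass at 83.5 CPM against 270 and 275 CPM. The amino acid list as a whole had 2 of 9 measured genes at least 1.5-fold lower and 1 higher in each comparison. Among all measured genes 4.5% and 4.35% were that much higher.

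Id1 and Id2, which BMP signalling induces, stood at 487 and 444 CPM against 211 and 223 CPM in the other Clec4g-gated cells, although the ligand Bmp2 was lower. Of 19 measured genes of the BMP and TGF-beta list, 4 were at least 1.5-fold higher and 4 lower in that comparison, with a median log2 ratio of 0.13. Among all measured genes 4.5% were that much higher and 6.35% that much lower. Hey1, counted among the higher genes of the list, was measured only through the gated cells. The interferon-induced chemokines Cxcl9 and Cxcl10 stood at 47.3 and 36.2 CPM against 140 and 112 CPM in cells of the same gates with 0 Adgrg6 UMIs, and Isg15 at 158 against 107 CPM. The Cxcl10 UMIs came from 21 of the gated cells.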
